A study of Homo sapiens with 4 samples.

Results

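The 10 genes described here encode proteins that cut, bundle or anchor actin filaments, the cores of microvilli and of the apical tuft that gives tuft cells their name. They were taken by gene symbol: AVIL, VIL1, VILL, GSN, SCIN, ESPN, FSCN1, PLS1, PLS3 and EZR, 10 of the 35979 gene symbols measured. Each had a single row in the tables. RNA was sequenced from NCI-H1048, an established small cell lung cancer line that grows with tuft cell features and expresses POU2F3, the transcription factor of tuft cells. A non-targeting guide RNA (gRNA) gave 1 library, labelled as wild type and called the control here. A POU2F3 gRNA gave 1 library and 2 different COLCA2 gRNAs gave 1 library each, labelled as POU2F3 and COLCA2 knockouts. COLCA2 encodes a co-activator that binds POU2F3. No treatment is recorded for any library. Whether the edited cells were pools or single clones, and how long after editing they were taken, is not given in the sources used here.

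A microvillus is held up by a bundle of parallel actin filaments. Villin, the plastins (also called fimbrins) and espin cross-link the filaments, and ezrin ties the bundle to the membrane. Fascin bundles the filaments of filopodia. Advillin and villin belong to the gelsolin superfamily, whose members bind calcium and sever or cap filaments, and advillin is a widely used marker of tuft cells in gut and airway.

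The values are normalized counts, as the authors deposited them, and each equals a whole number of reads scaled by 1 factor for its library. The libraries held between 21587741 and 29632382 reads assigned to genes. POU2F3 transcript was at 9.92% of the control level after POU2F3 gRNA, and COLCA2 transcript at 55.8% and 63.4% after COLCA2 gRNA 1 and 2. Transcript levels do not show whether the protein was lost. POU2F3 itself was at 25.2% and 16.1% after COLCA2 gRNA 1 and 2, so it was lower in all 3 targeted libraries. COLCA2 transcript was in turn at 24.9% after POU2F3 gRNA, with a normalized count of 1393 against 3119 and 3541 after COLCA2 gRNA 1 and 2 and 5585 in the control. It was thus lowest in the POU2F3 gRNA library, and both transcripts were lower there than in either COLCA2 library. Of 8 tuft markers 5 had a mean normalized count of at least 20, and the 8 summed to 35603 in the control and 9441 to 13172 in the targeted ones. Most of that sum was SOX9 and POU2F3, itself a targeted gene, at 17848 and 14602 in the control. SOX9 had 8463 and 6645 after COLCA2 gRNA 1 and 2, and 7566 after POU2F3 gRNA. TRPM5, the taste-signalling channel of many tuft cells, had at most 3 reads in every library. The 4 epithelial markers EPCAM, KRT8, KRT18 and CDH1 summed to 12082 in the control and 25820 to 37107 in the others. EPCAM alone was lower in all of them, at 2463 to 3408 against 3986. The epithelial sum was higher in every library in which the tuft sum was lower, and its part in the results below was not tested. Markers of enterocytes and leukocytes summed to at most 35.3 in any library, with APOA4 and CD3E at 0 throughout. The endothelial list summed to at most 65.9 and the fibroblast list to between 1145 and 1431, mostly COL1A1. Within the fibroblast list PDGFRB, a growth factor receptor of mesenchymal cells, had 22.9 in the control, 187 and 120 after COLCA2 gRNA 1 and 2, and 79.7 after POU2F3 gRNA, while COL1A1 lay between 1002 and 1186. Its part in the results below was not tested.

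Each targeted library was set against the same single control library as a log2 ratio of normalized counts with 1 added to each. That scale understates the change of low genes. The spread between the COLCA2 guides, which also holds any culture and library difference, was the one available estimate of error, and POU2F3 gRNA had no replicate. POU2F3 gRNA and the control, with 1 library each, have no spread of their own, so a 2-fold difference is used as a description. The edgeR test given below as an alternative borrows its spread from the COLCA2 pair. Intervals are 95% exact (Clopper-Pearson) intervals that cover counting error only. In bulk RNA, fewer cells expressing a gene and less RNA per cell cannot be told apart.

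Upstream sequences are shown for AVIL and EZR, the members whose smallest difference over the 3 targeted libraries was largest below and above the control. After POU2F3 gRNA alone, GSN was further above the control than EZR. Each is the 250 bases before the RefSeq start on GRCh38.p14, read 5′ to 3′ on the gene's own strand. The AVIL stretch is chr12:57818735-57818984 on the minus strand and the EZR stretch chr6:158818236-158818485 on the minus strand. Capitals mark ATGCAAA in AVIL, the first 7 letters of the octamer ATGCAAAT that POU factors bind, and TGACTCA in EZR, a match to the AP-1 motif TGANTCA.
AVIL: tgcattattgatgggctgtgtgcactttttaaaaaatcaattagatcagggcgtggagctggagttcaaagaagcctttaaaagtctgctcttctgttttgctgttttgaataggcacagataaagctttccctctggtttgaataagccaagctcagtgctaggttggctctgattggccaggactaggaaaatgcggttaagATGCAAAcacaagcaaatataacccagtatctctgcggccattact
EZR: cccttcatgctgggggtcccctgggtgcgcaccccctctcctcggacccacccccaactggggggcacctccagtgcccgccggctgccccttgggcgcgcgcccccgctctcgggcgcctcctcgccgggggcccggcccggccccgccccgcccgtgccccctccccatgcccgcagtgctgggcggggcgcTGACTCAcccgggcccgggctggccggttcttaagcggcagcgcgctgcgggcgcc

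The bases before the start were 42.4% G or C for AVIL and 80.8% for EZR, against a median of 58% over all promoters. ATGCAAA lay 46 to 40 bases before the AVIL start and in no other of the 17 listed promoters of 7 member genes. Over the 35116 listed promoters of 300 bases, 4.46% held ATGCAAA on either strand. That shortened motif was chosen after the AVIL sequence had been read. The full octamer ATGCAAAT and the looser ATGCNAAT, of which ATGCAAAT is 1 form, were in none of the 17 member promoters and in 1.77% and 2.97% of all promoters. The AP-1 match lay 56 to 50 bases before the EZR start, and another was found in 1 of the VILL promoters, against 7.71% of all promoters. The TEAD motif GGAATG was found in 2 of the PLS1 promoters and in 14% of all promoters. These matches describe letters in a window and not binding. VIL1, ESPN and FSCN1 had no listed promoter.

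**Figure D1:**
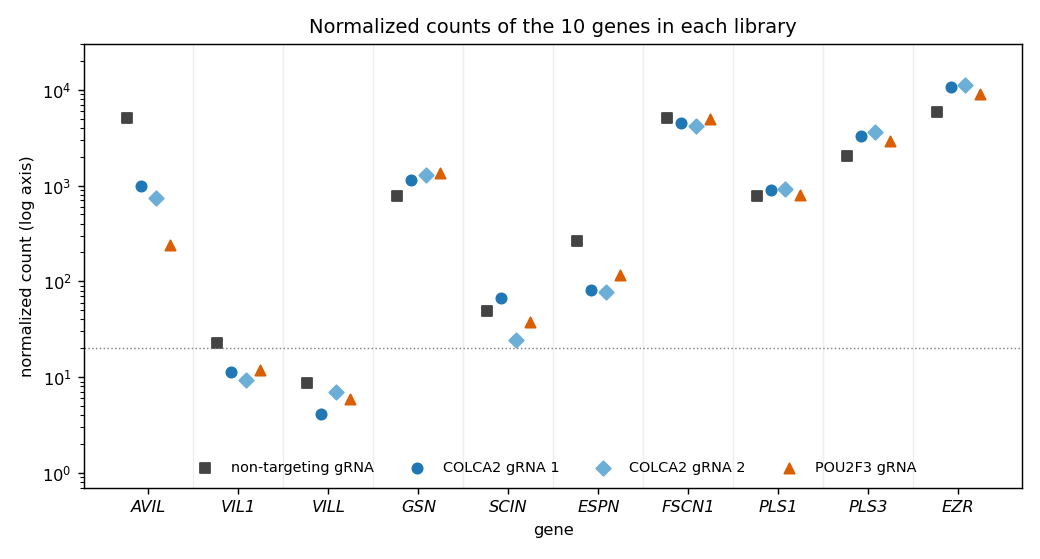
Normalized count (log axis) of the 10 genes in the non-targeting, COLCA2 gRNA 1, COLCA2 gRNA 2 and POU2F3 gRNA libraries, 1 point per library. The dotted line is at 20, the minimum asked of a gene's mean; AVIL runs from 5093 to 242, whereas FSCN1 stays between 4163 and 5050.

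AVIL (ENSG00000135407, chromosome 12, 57797376 to 57818704, minus strand, GRCh38), which encodes advillin, had the widest range of the 10 genes in fold terms. Normalized counts were 5093 in the control, 990 after COLCA2 gRNA 1, 742 after COLCA2 gRNA 2 and 242 after POU2F3 gRNA. Every targeted library was lower, and the POU2F3 gRNA library was lower than both COLCA2 libraries. The POU2F3 gRNA library held 4.75% of the control level (interval 4.20% to 5.35%), a log2 ratio of -4.39. Only 14 of the 14940 genes with a mean of at least 20 had a lower ratio there, AVIL being number 15 from the lowest. COLCA2 gRNA 1 left 19.4% (18.1% to 20.8%) and COLCA2 gRNA 2 left 14.6% (13.4% to 15.8%), and AVIL was number 43 and number 35 from the lowest. The mean log2 ratio over the COLCA2 guides was -2.57 ± 0.29 (SD, n = 2). AVIL overlaps TSFM on the opposite strand by 10696 bp, and use of the strand in counting is not given in the sources used here. TSFM had a normalized count of 931 in the control and 901 to 994 in the targeted ones.

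VIL1 (ENSG00000127831, chromosome 2, 218419092 to 218453295) encodes villin, the classical brush border protein, and was barely expressed. It had 24 reads in the control, 11 and 8 after COLCA2 gRNA 1 and 2, and 14 after POU2F3 gRNA. All 3 targeted libraries had fewer reads, but the POU2F3 gRNA level of 51.3% of the control had an interval from 24.5% to 103%. VIL1 overlaps USP37 on the opposite strand by 3045 bp. USP37 had a normalized count of 1180 in the control and 949 to 1144 in the targeted libraries. Whether USP37 reads enter the few VIL1 reads was not tested. VILL (ENSG00000136059, chromosome 3, 37988059 to 38007188), a villin-like gene, had between 4 and 9 reads in every library. At this depth no difference in VILL was detectable: its interval after POU2F3 gRNA ran from 21.6% to 206%. Both genes had a mean below 20 and were not among the 14940, so 8 of the 10 genes passed that minimum.

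GSN (ENSG00000148180, chromosome 9, 121207794 to 121332843) encodes gelsolin, which severs and caps filaments. Normalized counts were 782 in the control, 1138 and 1281 after COLCA2 gRNA 1 and 2, and 1340 after POU2F3 gRNA. All targeted libraries were higher, with log2 ratios of 0.54, 0.71 and 0.78, and none reached 2-fold. GSN overlaps RAB14 on the opposite strand by 15221 bp, and RAB14 had 2629 without targeting and 2644 to 2888 with it. SCIN (ENSG00000006747, chromosome 7, 12570577 to 12660179) encodes scinderin, a close relative of gelsolin that severs filaments. Normalized counts were 48.7 in the control, 67.4 after COLCA2 gRNA 1, 24.7 after COLCA2 gRNA 2 and 37.8 after POU2F3 gRNA. The COLCA2 guides lay on either side of the control and were more than 2-fold apart, which was true of 2.22% of all genes. Their mean log2 ratio was -0.25 ± 1.0 (SD, n = 2). No direction can be given for SCIN from these libraries.

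Set per length of the longest annotated transcript, 2891 bases for AVIL and 6454 for GSN, GSN stood above AVIL after POU2F3 gRNA alone. That order depends on the lengths used. In reads without regard to length, GSN was above AVIL after COLCA2 gRNA 1 and 2 as well. In the control the normalized count per kb was 1762 for AVIL, 121 for GSN, 5.01 for SCIN, 3.51 for VIL1 and 1.94 for VILL. AVIL made up 93% of the summed level of these 5 genes there. After COLCA2 gRNA 1 and 2 the AVIL share was 64.8% and 55.7%, and after POU2F3 gRNA it was 28%, below the 69.6% of GSN. The summed level per kb was 1893 without targeting, 528 and 461 after COLCA2 gRNA 1 and 2 and 298 after POU2F3 gRNA. The ratio of GSN to AVIL reads, in which no scaling factor enters, was 0.154 in the control (0.143 to 0.165). It was 1.15 (1.05 to 1.26) and 1.73 (1.56 to 1.91) after COLCA2 gRNA 1 and 2, and 5.55 (4.89 to 6.31) after POU2F3 gRNA. No interval overlapped another, and the order of the libraries was that of falling AVIL. The VIL1 to AVIL read ratio stayed low, from 0.00450 without targeting to 0.0486 after POU2F3 gRNA, so villin transcript did not reach the level of the remaining advillin transcript in any library.

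**Figure D2:**
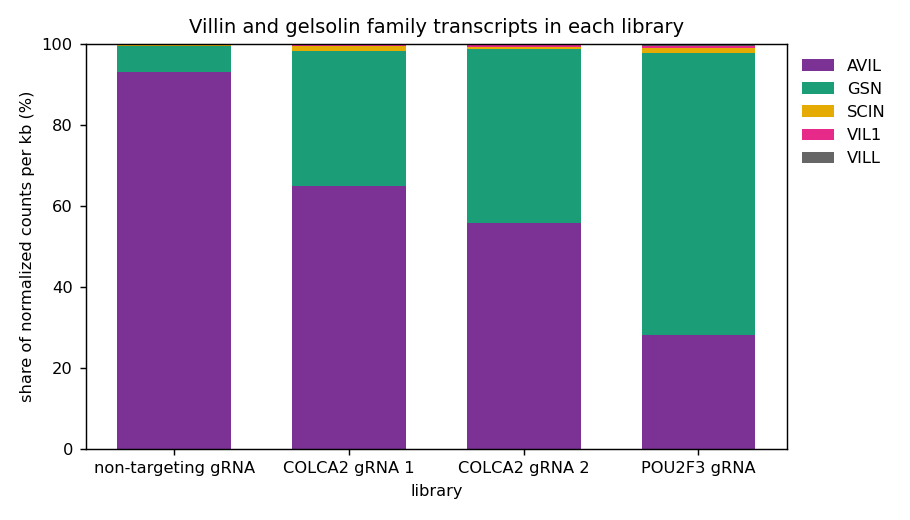
Share (%) of the summed normalized counts per kb of longest transcript taken by AVIL, GSN, SCIN, VIL1 and VILL, 1 bar per library. AVIL takes 93% of the non-targeting bar and 28% of the POU2F3 gRNA bar, where GSN takes 69.6%; the bars show shares and not levels, and carry no error because each is 1 library.

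ESPN (ENSG00000187017, chromosome 1, 6424776 to 6461367) encodes espin, the bundler of microvilli and hair cell stereocilia. Normalized counts were 265 in the control, 81.9 and 77.6 after COLCA2 gRNA 1 and 2, and 117 after POU2F3 gRNA. All targeted libraries were lower, and here the COLCA2 libraries were the lowest. The mean log2 ratio over the COLCA2 guides was -1.72 ± 0.054 (SD, n = 2), and the ratio after POU2F3 gRNA was -1.18. POU2F3 gRNA left 43.9% of the control level (35.6% to 54.1%), and the COLCA2 guides left 30.9% (23.7% to 39.7%) and 29.2% (22.0% to 38.4%). The pseudogene ESPNP shares 9.14% of the 31-base words of ESPN transcripts, so reads could be split between them. ESPNP had 49.7 without targeting, 34.2 and 5.88 after COLCA2 gRNA 1 and 2, and 28.5 after POU2F3 gRNA. With all ESPNP reads added to ESPN the log2 ratios were -1.43 and -1.90 after COLCA2 gRNA 1 and 2, and -1.11 after POU2F3 gRNA, each still more than 2-fold lower. ESPN also overlaps TNFRSF25 on the opposite strand by 582 bp. TNFRSF25 had 545 in the control, 333 and 319 after COLCA2 gRNA 1 and 2, and 387 after POU2F3 gRNA. That is the same order of libraries as for ESPN. Whether TNFRSF25 reads enter the ESPN counts was not tested.

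FSCN1 (ENSG00000075618, chromosome 7, 5592823 to 5606655) encodes fascin, the bundler of filopodia. Normalized counts were 5050 in the control, 4484 and 4163 after COLCA2 gRNA 1 and 2, and 4887 after POU2F3 gRNA. The mean log2 ratio over the COLCA2 guides was -0.22 ± 0.076 (SD, n = 2), and after POU2F3 gRNA it was -0.047, a level of 96.8% with an interval of 93.2% to 100%. The processed pseudogene FSCN1P1 shares 9.8% of the 31-base words of FSCN1 transcripts and was listed at 0 in every library.

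PLS1 and PLS3 encode the plastins: PLS1 (ENSG00000120756, chromosome 3, 142596387 to 142713664) the form of intestinal microvilli and PLS3 (ENSG00000102024, chromosome X, 115561174 to 115650861) the form found in most solid tissues. The normalized count of PLS1 was 779 in the control, 892 and 920 after COLCA2 gRNA 1 and 2, and 798 after POU2F3 gRNA. That of PLS3 was 2016, 3270 and 3594, and 2901. PLS3 was higher in all targeted libraries, with a mean log2 ratio of 0.77 ± 0.096 over the COLCA2 guides (SD, n = 2) and 0.52 after POU2F3 gRNA, whereas PLS1 had 0.22 ± 0.032 and 0.035. The read ratio of PLS3 to PLS1 within a library was 2.59 (2.39 to 2.81) without targeting. It was 3.67 (3.40 to 3.96) and 3.91 (3.61 to 4.23) after COLCA2 gRNA 1 and 2, and 3.63 (3.38 to 3.91) after POU2F3 gRNA. The 3 targeted libraries overlapped each other and lay above the control.

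EZR (ENSG00000092820, chromosome 6, 158765741 to 158819412, minus strand) encodes ezrin, which links filaments to the membrane and was the most abundant of the 10 genes per kb in every library. Normalized counts were 5813 in the control, 10738 and 11182 after COLCA2 gRNA 1 and 2, and 8982 after POU2F3 gRNA. The mean log2 ratio was 0.91 ± 0.041 over the COLCA2 guides (SD, n = 2) and 0.63 after POU2F3 gRNA. Per kb, EZR, FSCN1 and AVIL were close together without targeting, at 1877, 1818 and 1762. After POU2F3 gRNA they stood at 2901, 1760 and 83.6. The other ezrin family members differed less: MSN (moesin) had log2 ratios of 0.46, 0.48 and 0.45 after COLCA2 gRNA 1, COLCA2 gRNA 2 and POU2F3 gRNA, and RDX (radixin) had -0.093, 0.13 and 0.047. The EZR to MSN read ratio, a pair chosen after its values were seen, was 1.09 (1.05 to 1.13) without targeting, 1.46 and 1.5 after COLCA2 gRNA 1 and 2, and 1.23 (1.19 to 1.26) after POU2F3 gRNA.

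**Figure D3:**
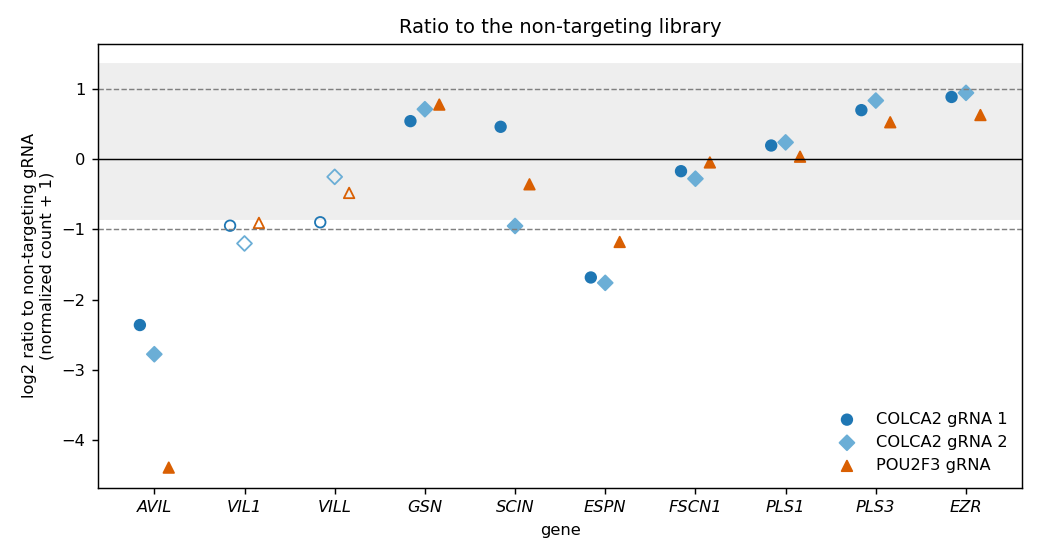
Log2 ratio of normalized count + 1 to the control for the 10 genes in the COLCA2 gRNA 1, COLCA2 gRNA 2 and POU2F3 gRNA libraries; open points have a mean below 20, dashed lines mark 2-fold, and the grey band covers the 5th to 95th percentiles of all 14940 genes at their widest over the 3 libraries. AVIL and ESPN lie below the lower dashed line in all 3 libraries and no member lies above the upper one.

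Counted over the 8 genes that passed the minimum, AVIL and ESPN were at least 2-fold lower after POU2F3 gRNA, where 3.05% of all 14940 genes were, and none was at least 2-fold higher, where 6.73% of all genes were. With both COLCA2 guides the same genes, AVIL and ESPN, were at least 2-fold lower, against 2.02% of all genes, and again none was at least 2-fold higher, against 5.79%. The comparisons share their control library. Lower by at least 1.5-fold were again AVIL and ESPN, against 7.69% of all genes after POU2F3 gRNA and 6.03% with both COLCA2 guides. At 1.5-fold, EZR was higher in all 3 targeted libraries, as were 8.14% of all genes, while GSN passed after POU2F3 gRNA (12.2% of all genes higher) and PLS3 with both COLCA2 guides (9.71%). In direction alone, GSN, PLS1, PLS3 and EZR were above the control in all 3 targeted libraries, as were 34.4% of all genes, and AVIL, ESPN and FSCN1 were below it, as were 35.3%. These shares of higher genes leave little to read from the EZR, GSN and PLS3 values taken singly. The quasi-likelihood test of edgeR, run on the recovered reads as an alternative, called AVIL and ESPN lower and GSN, PLS3 and EZR higher after COLCA2 gRNA, at a Benjamini-Hochberg threshold that called 7.51% of all genes lower and 11.4% higher. It called the same 5 after POU2F3 gRNA, with 3.98% of genes lower and 8.45% higher. Its spread comes from the COLCA2 pair alone, and the control and POU2F3 gRNA hold 1 library each. For COLCA2 gRNA and POU2F3 gRNA alike, it therefore compares these libraries and not the conditions.

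The POU2F3 gRNA library was also set directly against the COLCA2 libraries, which leaves out the control. AVIL was the single member at least 2-fold below both COLCA2 guides, where 0.924% of all genes were. It was at 24.4% of COLCA2 gRNA 1 (21.3% to 27.9%) and 32.6% of COLCA2 gRNA 2 (28.2% to 37.5%), a mean log2 difference of -1.82 against an SD of 0.29 between the guides. No member was at least 2-fold above both, against 0.442% of all genes. In this direct comparison edgeR called AVIL lower and no member higher, with 0.234% of all genes called lower and 0.107% higher. ESPN went the other way, at 142% (107% to 190%) and 150% (111% to 205%) of the COLCA2 libraries. With all ESPNP reads added, the normalized count was 145 after POU2F3 gRNA, against 116 and 83.5 after COLCA2 gRNA 1 and 2. The read ratio of ESPN to AVIL, a pair chosen after its values were seen, was 0.0521 without targeting, 0.0827 and 0.105 after COLCA2 gRNA 1 and 2, and 0.483 (0.391 to 0.593) after POU2F3 gRNA. AVIL and ESPN, both lower than in the control, thus stood in a different proportion in the POU2F3 gRNA library than in either COLCA2 library. EZR and PLS3 were lower after POU2F3 gRNA than after either COLCA2 guide, at 83.6% and 80.3% of them for EZR and 88.7% and 80.7% for PLS3. Neither difference reached 2-fold, and edgeR called neither gene in this comparison.

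**Figure D4:**
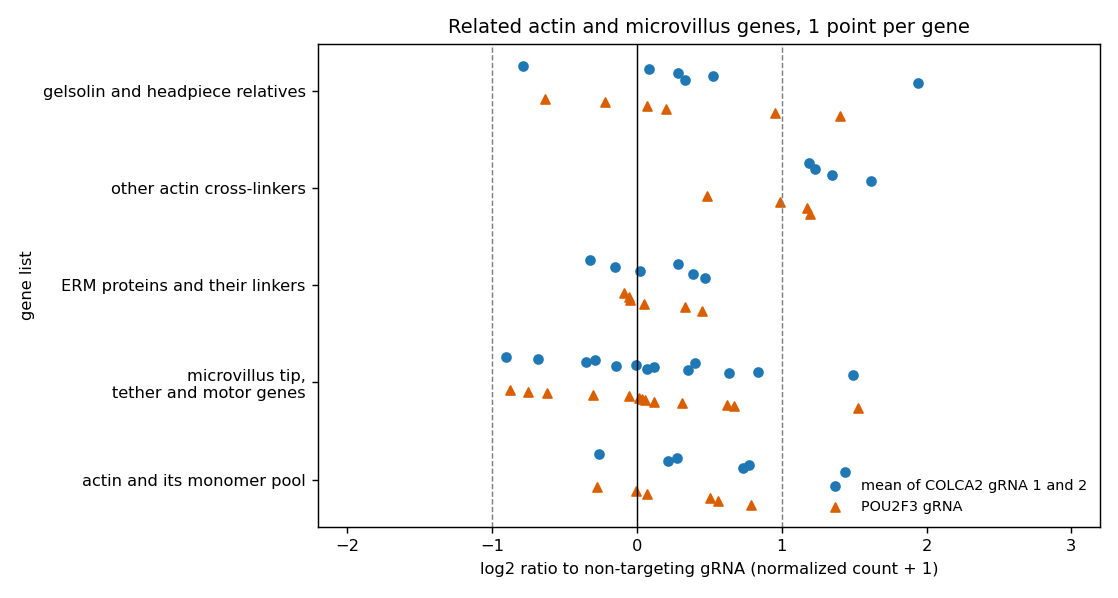
Log2 ratio to the control of 35 related genes in 5 lists, 1 point per gene, for the mean of the COLCA2 guides and for POU2F3 gRNA; dashed lines mark 2-fold. Every point of the other actin cross-linkers lies above 0, and no gene of any list lies 2-fold below.

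Related genes were taken from 5 lists of 46 genes, of which 35 passed the minimum. After POU2F3 gRNA, 4 of the 35 were at least 2-fold higher and none was at least 2-fold lower, where 6.73% and 3.05% of all genes were. With both COLCA2 guides 7 were at least 2-fold higher and none was at least 2-fold lower, where 5.79% and 2.02% of all genes were. Of 6 gelsolin and headpiece relatives, CAPG was at least 2-fold higher in all 3 targeted libraries, where 4.89% of all genes were. CAPG encodes a gelsolin relative that caps filaments without severing them. Its normalized count was 14.3 without targeting, 59.1 and 56.5 after COLCA2 gRNA 1 and 2, and 39.4 after POU2F3 gRNA. CAPG had only 15 reads in the control. Its level after POU2F3 gRNA, 275% of the control, had an interval of 151% to 530%. The median log2 ratio of that list was 0.14 after POU2F3 gRNA and 0.31 for the averaged COLCA2 guides, beside -0.0037 and -0.0086 over all 14940 genes.

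Among the other actin cross-linkers, all 4 that passed the minimum (LCP1, MISP, ACTN1 and ACTN4) were at least 2-fold higher with both COLCA2 guides, against 5.79% of all genes. LCP1 and ACTN1 were so after POU2F3 gRNA as well, against 6.73%. LCP1, the plastin of blood cells, had 146 without targeting, 377 and 370 after COLCA2 gRNA 1 and 2, and 332 after POU2F3 gRNA. ACTN1, an alpha-actinin of stress fibres and adhesions, had 3101, 9317 and 9745, and 7108. The list's median log2 ratio was 1.29 over the COLCA2 guides and 1.08 after POU2F3 gRNA. LCP1 thus stood with PLS3 on the higher side of the plastins, while PLS1 was within 0.24 of the control on the log2 scale.

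Of the 13 genes for microvillus tips, tethers and motors, PROM1 was at least 2-fold higher in all 3 targeted libraries and none was at least 2-fold lower in all of them, where 4.89% and 1.5% of all genes were. PROM1 encodes prominin-1, a membrane protein of microvilli and other protrusions, and had 1427 without targeting, 3667 and 4374 after COLCA2 gRNA 1 and 2, and 4114 after POU2F3 gRNA. The tether genes CDHR2 and ANKS4B had log2 ratios of -0.87 and -0.75 after POU2F3 gRNA and -0.90 ± 0.28 and -0.68 ± 0.20 over the COLCA2 guides (SD, n = 2), and edgeR called neither (adjusted p = 0.177 and 0.239 for COLCA2 gRNA). In this list edgeR called EPS8, MYO5B and PROM1 higher in both comparisons with the control. After COLCA2 gRNA it also called EPS8L2 higher and MYO6 lower. Its calls covered 8.45% of all genes as higher after POU2F3 gRNA, and 11.4% as higher and 7.51% as lower after COLCA2 gRNA. EPS8, which caps and bundles filaments at microvillus tips, had log2 ratios of 0.64 ± 0.19 over the COLCA2 guides (SD, n = 2) and 0.67 after POU2F3 gRNA. MYO5B, a motor of apical membrane traffic, had 0.84 ± 0.035 and 0.62. The tether partners CDHR5, USH1C and MYO7B, and the brush border myosin MYO1A, were below the minimum, with MYO7B listed at 0 in 3 libraries. The list's median was 0.035 after POU2F3 gRNA and 0.072 over the COLCA2 guides. The 6 genes for ezrin relatives and linkers had medians of -0.00070 and 0.15, with none 2-fold from the control in either comparison. The 6 genes for actin and its monomer pool had medians of 0.29 and 0.50. TMSB4X, which encodes the monomer-binding thymosin beta-4, was the one at least 2-fold higher with both COLCA2 guides, against 5.79% of all genes. ACTB itself went from 69309 without targeting to 119035 and 117908 after COLCA2 gRNA 1 and 2, and 98296 after POU2F3 gRNA.

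The genes whose pattern was most like that of AVIL were sought over the 4 libraries, by Euclidean distance between log2 values centred on each gene's mean, among genes with a mean of at least 100. The closest were RGS21, SMR3B, PLA2G4D, ENPP2 and CRYM, at distances from 0.24 to 0.44. RGS21 had 910 in the control, 178 and 112 after COLCA2 gRNA 1 and 2, and 36.1 after POU2F3 gRNA. It encodes a regulator of G-protein signalling. ENPP2, which encodes the secreted lipid enzyme autotaxin, had 4607, 849 and 867, and 285. Their likeness to AVIL in the order of the libraries follows from how they were chosen and is no separate finding. For EZR, the member with the largest smallest ratio above the control, the closest were FXYD5, MYL12B, OSGIN2, TNFAIP8 and PPL, at distances from 0.024 to 0.049. FXYD5 had 796 without targeting, 1491 and 1559 after COLCA2 gRNA 1 and 2, and 1228 after POU2F3 gRNA. Distances grow with the size of a gene's range, so those for AVIL and EZR are not comparable.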

How the data were processed

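RNA was extracted with TRIzol and chloroform, and poly(A) RNA was made into libraries with a NEBNext Ultra II kit, per the labels' protocols. Salmon, DESeq2 and hg38 are named in the submitters' processing notes without their roles. The files hold normalized counts per gene, a linear signal made by the authors, per the file headers. Dividing by the smallest value above 0 in a library gave whole numbers for 100% of its genes (relative tolerance 1e-06), which were taken as reads. The tables held 38145 rows; rows of the same symbol were summed, and genes with a mean of at least 20 were kept for counts of genes (14940). Ratios used a pseudocount of 1. The members, lists and comparisons were chosen with earlier results of these data known. All members were named. Related genes were named where they were at least 2-fold from the control in the same direction in all 3 targeted libraries. CDHR2, ANKS4B, EPS8, EPS8L2, MYO5B, MYO6, PDGFRB, SOX9, MSN, RDX, TMSB4X and ACTB were named after their values were seen. So were MISP, ACTN4 and genes below the minimum. The edgeR 4.0.16 quasi-likelihood test (R 4.3.3, 3 groups, TMM, Benjamini-Hochberg at 0.05) was tested on simulated data and has 1 residual degree of freedom. Intervals came from scipy 1.17.1, positions, transcript lengths and 31-base words from GENCODE 29 (GRCh38) by gene identifier for 10 of 10 members, and promoters from RefSeq (GRCh38.p14), matched by symbol for 7 of 10.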

Additional observations from a re-analysis of the deposited data

How the results depend on the processing

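No paired analysis was possible because both POU2F3 gRNA and the control each hold 1 library. With a 4-fold threshold, 1 member (AVIL) was lower with POU2F3 gRNA and 1 with both COLCA2 guides, in place of 2, and 0 in place of 1 were apart between POU2F3 gRNA and both guides. With a 1.5-fold threshold, 2 members were higher with POU2F3 gRNA (GSN and EZR) and 2 with both COLCA2 guides (PLS3 and EZR), in place of 0; edgeR, whose call sets no fold, gave 3 in each (GSN, PLS3 and EZR). These thresholds change the counts by construction. The other pseudocounts, expression minimums, scalings, single rows and omission of either COLCA2 guide left all 5 counts as they were: 2, 0, 2, 0 and 1. Of 148 values of single members or pairs under other pseudocounts and scalings, 13 moved further than the guides' SD. A further 64 values could not move that far by construction and are not counted: those without 1 guide, and those from single rows. Without COLCA2 gRNA 2 the COLCA2 value of SCIN changed sign, to 0.46, and without COLCA2 gRNA 1 it was -0.95. Scaling to equal totals moved the PLS1 ratio with POU2F3 gRNA from 0.035 to 0.00057 and shifted the median over all genes by up to 0.074. VIL1 and VILL are limited by their 4 to 24 reads per library.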
